A study of Mus musculus with 4 samples.

Results

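The genes described here carry the unfolded protein response and the integrated stress response in mouse liver. They come from a list of 34 genes chosen by name and known role, drawn up with earlier results of these data known, and each was represented by its brightest probe set on average, among those that the platform annotation gives to that gene alone. Of the 34 genes, 33 had such a probe set, out of 22180 genes named on the array. The probe set of Pdia4, which encodes a protein disulfide isomerase, is shared with a microRNA gene and was not used here. A filter on dim probe sets, which left out genes with a mean log2 value under the 40th percentile of all named genes (3.47), kept 32 of the 33 genes and 13308 genes in all. The 1 gene left out was Psat1, an enzyme of serine synthesis.

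The endoplasmic reticulum (ER) folds secreted and membrane proteins, and hepatocytes secrete most plasma proteins through it. When unfolded proteins accumulate there, the sensors IRE1, ATF6 and PERK raise the output of chaperones, disulfide isomerases and the machinery that extracts misfolded proteins for degradation. PERK belongs to a family of kinases that phosphorylate the translation factor eIF2. Their shared output, the integrated stress response, favours translation of ATF4, which drives genes of amino acid synthesis, amino acid import and tRNA charging. In liver both responses are known to change with feeding, amino acid supply and lipid load.

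Liver RNA of C57Bl6 mice aged 16 weeks was hybridised to 4 Affymetrix gene arrays, so that each genotype on each diet had 1 array. Wild-type mice were MyD88 lox/lox and so carried the floxed gene without Cre, and knockout mice were ALB Cre MyD88 lox/lox. In the knockout the albumin promoter drives Cre in hepatocytes, so other liver cells keep Myd88, the adaptor of Toll-like and interleukin-1 receptors. The control diet held 9.4% fat and the high-fat diet 60% fat. The RNA of 4 to 5 mice, chosen for RNA quality, was pooled for each array. Each group was therefore 1 array, the spread between mice was not measured, and the number of arrays limits the precision. In such bulk RNA, fewer cells of a type and less RNA per cell cannot be told apart.

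Array medians of the deposited log2 values lay between 3.53 and 3.56, and pairs of arrays correlated across probe sets with a Pearson r of 0.985 to 0.990. Myd88 (probe set 17532137) was at 6.10 on the wild-type and 5.91 on the knockout control diet array, and at 6.44 and 6.23 on the high-fat diet arrays. These values do not check the deletion, because the position of the probes against the deleted exons was not analysed here and other liver cells keep the gene. All 7 hepatocyte markers were present, with a mean log2 value between 11.85 and 11.88 on each array. Markers of other tissues and states differed between the arrays. On control diet the mean over 9 pancreas genes was 5.29 in wild type and 7.49 in knockout, and on high-fat diet it was 7.35 and 8.53. All 8 pancreas genes kept by the filter differed by at least 1.5-fold in each of the 4 comparisons. The mean over 12 acute phase genes was 8.13 and 10.40 on control diet and 9.54 and 9.79 on high-fat diet, and the mean over 6 skeletal muscle genes lay between 3.64 and 3.94 on 3 arrays and at 5.13 on that of wild-type mice fed high fat.

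Promoter sequences are shown because factors of both responses act through known DNA elements. Of the 34 genes, 30 had a RefSeq promoter on the build GRCm38.p6, taken from 250 bases before to 50 bases after the gene start. The ER stress response element, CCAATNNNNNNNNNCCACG, is the known site of NF-Y with ATF6 or XBP1, and it was searched on both strands. It was found in 9 of the 30 members, which is 30%, and in 0.137% of all 27025 genes with a promoter. The members with it were Calr, Canx, Creld2, Derl3, Dnajc3, Hsp90b1, Hspa5, Pdia6 and Syvn1. The related element ATTGGNCCACG was found upstream of Herpud1 and just past the start of Dnajb11, and in 0.0444% of all genes with a promoter. The C/EBP-ATF response element, searched as TGATGNAA, is bound by ATF4. It was found in Asns, Chac1, Herpud1 and Trib3, which is 13.3% of members against 4.51% of all genes with a promoter. It is not particular to the members: of 77 genes with a promoter from further lists of the pathway, 14 had it. The ER stress response element was found in 1 of those 77. The matches of these elements in the members did not overlap one another. A match describes letters in this window and is not a measurement of binding. The members were chosen by known role in these responses, so their shares with known elements of the responses are not independent of that choice.

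The stretches below are examples from members with each element, 5′ to 3′ on the strand of the gene, with the element in capitals. The Hspa5 stretch is chr2:34772000-34772068 (plus strand) and its element starts 65 bases before the gene start. The stretch of Creld2 is chr15:88819495-88819563 (plus strand), with the element on the opposite strand 126 bases before the start. Dnajc3 is shown at chr14:118937802-118937870 (plus strand, 105 bases before) and Syvn1 at chr19:6046507-6046575 (plus strand, 44 bases before). Herpud1 is shown with the related element at chr8:94386352-94386412 (plus strand, 52 bases before). For the C/EBP-ATF element, Asns is shown at chr6:7693210-7693257 (minus strand, 23 bases before) and Chac1 at chr2:119351024-119351081 (plus strand, element on the opposite strand, 193 bases before).
Hspa5: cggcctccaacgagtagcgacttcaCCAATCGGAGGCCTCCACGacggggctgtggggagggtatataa
Creld2: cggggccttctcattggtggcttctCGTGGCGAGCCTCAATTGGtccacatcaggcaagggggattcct
Dnajc3: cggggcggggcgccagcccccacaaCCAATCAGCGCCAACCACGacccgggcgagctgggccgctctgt
Syvn1: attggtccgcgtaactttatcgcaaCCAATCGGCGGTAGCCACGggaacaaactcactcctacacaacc
Herpud1: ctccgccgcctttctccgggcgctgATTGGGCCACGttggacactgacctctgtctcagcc
Asns: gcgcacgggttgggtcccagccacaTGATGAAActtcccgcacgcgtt
Chac1: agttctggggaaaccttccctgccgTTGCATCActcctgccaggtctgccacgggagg

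Most members differed little between the 4 arrays, and the transcription factor gene Atf5 differed most. The range over the 4 arrays reached 1.5-fold (0.58 on the log2 scale) for 5 of the 32 members kept (15.6%), against 11.2% of all genes kept. Those members were Atf5, Sdf2l1, Creld2, Asns and Dnajb9. The smallest ranges were those of Sel1l, the adaptor of the Hrd1 ubiquitin ligase, at 0.05 and of the lectin chaperone gene Calr at 0.08. Differences between 2 arrays have no replicate and no test. They were called at 1.5-fold, with 2-fold as the stricter rule.

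**Figure D1:**
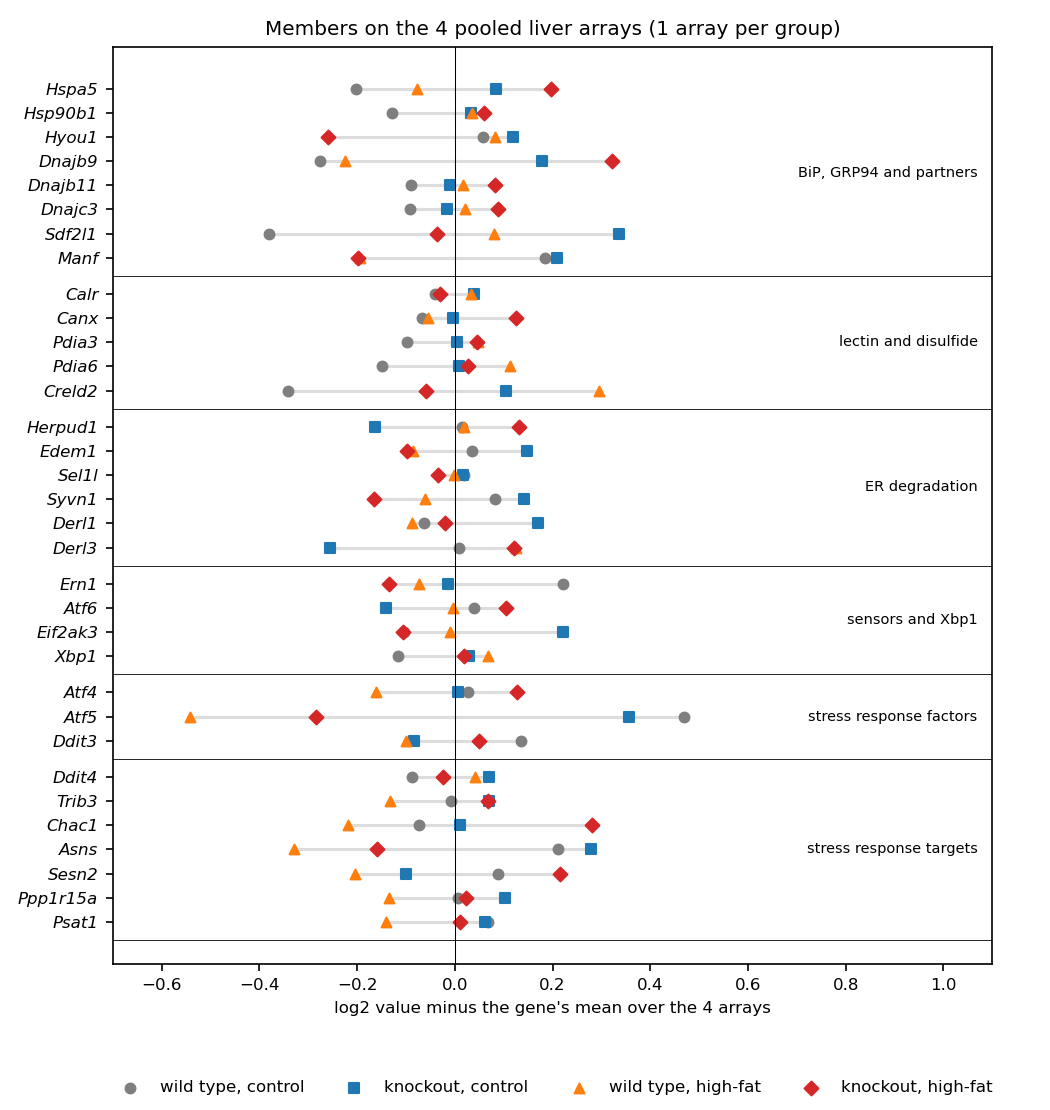
Each row is 1 of the 33 members, grouped by role, and the 4 symbols are its log2 values on the 4 arrays minus their mean (1 array per group, no error bars). Atf5 has the widest range, with both high-fat diet arrays low, and the wild-type control array is lowest for 11 of the 13 genes in the upper 2 groups.

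The first comparison asked how the members differed with the high-fat diet. In wild type 2 members were called at 1.5-fold, Creld2 higher and Atf5 lower, against 4.21% of all genes, and Atf5 alone at 2-fold, against 1.05%. In knockout Atf5 alone was called at 1.5-fold, against 4.01% of all genes, and 0 members at 2-fold, against 0.609%. These shares are close to those of all genes, and the median of the 32 members was 0.01 in wild type and -0.01 in knockout, beside -0.03 and 0.01 for all genes. The 2 diet differences share no array. Over all genes in wild type 224 of the 560 calls at 1.5-fold were higher, against 276 of 548 after cyclic loess and 278 of 549 after quantile normalisation.

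Atf5 encodes a basic leucine zipper factor whose translation rises when eIF2 is phosphorylated, and in hepatocytes it is known for amino acid metabolism and mitochondrial stress. Its log2 value was 8.75 on the wild-type and 8.63 on the knockout control diet array, and 7.73 and 7.99 on the respective high-fat diet arrays. It was lower on high-fat diet in both genotypes, as were 10 of the 32 members, itself included, and 29.0% of all genes. The difference was -1.01 in wild type (2.02-fold lower) and -0.64 in knockout (1.56-fold lower). In limma's additive fit the diet effect was -0.83 (SE 0.14), with an unadjusted p of 0.00150 and an adjusted p of 0.249. After a cyclic loess normalisation between the arrays the effect was -0.83 and the limma adjusted p was 0.0484, so that Atf5 passed the threshold of 0.05 under that normalisation and not on the values as deposited. Over the alternatives tried the adjusted p lay between 0.0484 and 0.320.

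Asns, asparagine synthetase and a classical ATF4 target with the C/EBP-ATF element shown above, had the next largest diet effect. On control diet it was at 4.13 in wild type and 4.20 in knockout, and on high-fat diet at 3.59 and 3.76. The differences were -0.54 and -0.44, and the limma effect was -0.49 (SE 0.12, adjusted p 0.368). Manf, a secreted ER protein that binds BiP, was at 5.48 and 5.51 on control diet and at 5.11 and 5.10 on high-fat diet, with a limma effect of -0.39 (SE 0.12, adjusted p 0.429). Its genotypes differed by 0.02 on control diet and by less on high-fat diet.

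The additive limma fit has 1 residual degree of freedom, the diet by genotype difference. Its p-values therefore rest on pools, and the variation among animals does not enter them. It called 0% of all genes for diet at an adjusted p of 0.05 and 9.3% at an unadjusted p under 0.05. Of the 32 members, 0 passed the adjusted and 3 the unadjusted threshold, and those were Atf5, Asns and Manf, all lower on high-fat diet. By cyclic loess and limma, 1 member was called, among 70 of the 13308 genes.

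**Figure D2:**
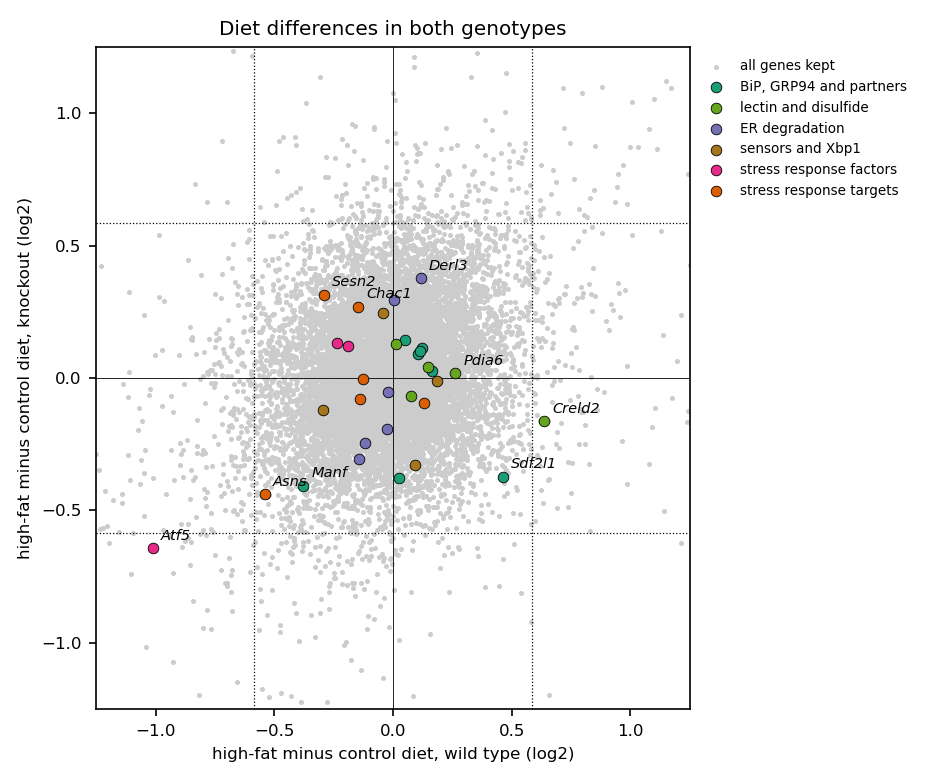
Each point is a gene kept by the filter, with its log2 difference between high-fat and control diet in wild type (x axis) and in knockout (y axis); members are coloured by role, dotted lines mark 1.5-fold, and genes beyond the axes are not drawn. Atf5 lies beyond 1.5-fold on both axes, and Creld2 and Sdf2l1 were higher in wild type and lower in knockout.

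The members of the integrated stress response were mostly at their lowest on the wild-type high-fat array. This held for 8 of the 9 kept, against 28.1% of all genes, and for 7 of 9 after cyclic loess or quantile normalisation. In wild type 8 of the 9 were lower on high-fat diet (median -0.19), while 55.0% of all genes were, and 8 of 9 against 49.4% after cyclic loess. In knockout 5 of the 9 were lower as deposited, and 4 of 9 after either normalisation. The exception in wild type was Ddit4, an inhibitor of mTORC1, at 3.62 on control and 3.75 on high-fat diet.

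On control diet Atf4 itself was at 8.16 in wild type and 8.14 in knockout, and on high-fat diet at 7.97 and 8.26. Ddit3, which encodes the stress factor CHOP, was at 4.84 and 4.62 on control diet and 4.60 and 4.75 on high-fat diet. The wild-type diet differences of these 2 genes were -0.19 and -0.24, and those in knockout 0.12 and 0.13, none of which reached 1.5-fold. ATF4 and CHOP are set in large part by translation and protein turnover, which these arrays do not measure. Sesn2, a stress-induced regulator of mTORC1, was at 3.93 and 3.74 on control diet and at 3.63 and 4.05 on high-fat diet. Chac1, an enzyme that degrades glutathione, was at 4.03 and 4.11 on control diet and at 3.88 and 4.38 on high-fat diet. Trib3, a pseudokinase induced by ATF4 and CHOP, and Ppp1r15a, the phosphatase subunit that reverses eIF2 phosphorylation, stayed within a range of 0.20 and 0.24 over the arrays. All 7 listed targets had a mean log2 value close to the filter value of 3.47, at 4.10 or less, and RMA compresses differences of dim probe sets.

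Genes that charge tRNAs, many of them ATF4 targets, were read from a list that holds no members. Of 11 measured tRNA synthetase genes, the high-fat diet values were lower for 10 in wild type (median -0.19) and for 8 in knockout (median -0.07), beside 55.0% and 47.7% of all genes. The wild-type high-fat array was lowest for 9 of the 11, beside 28.1% of all genes. After cyclic loess 8 of the 11 were lowest there. The diet difference of Cars was -0.67 in wild type and -0.12 in knockout, that of Mars1 -0.50 and -0.26, that of Tars -0.44 and -0.04, and that of Gars -0.41 and -0.34. Limma called 0 of them after adjustment and 2 at an unadjusted p under 0.05, Gars and Mars1, both lower, against 0% and 9.3% of all genes. Among 18 other ATF4 targets kept, 13 were lower in wild type (median -0.07) and 11 in knockout (median -0.16). Limma called 0 of these for diet after adjustment and 1, Fgf21, at an unadjusted p under 0.05. Fgf21, the stress-responsive hormone gene in that list, had the largest differences, -2.16 and -1.19, with a limma adjusted p of 0.203 as deposited and 0.0203 after cyclic loess. Atf3 differed by -0.53 and -0.16, Stc2 by -0.50 and -0.17, and the amino acid transporter gene Slc7a5 by -0.51 in wild type and 0.11 in knockout.

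The chaperone genes had the opposite order in wild type. BiP, encoded by Hspa5, is the main ER chaperone and holds the sensors inactive, and it works with GRP94 (Hsp90b1), the J proteins Dnajb9, Dnajb11 and Dnajc3, the exchange factor Hyou1 and the partners Sdf2l1 and Manf. Of these 8 genes, 7 were higher on high-fat diet in wild type (median 0.11) and 5 in knockout (median 0.06), beside 44.9% and 52.2% of all genes. The lectin chaperones Calr and Canx and the disulfide enzymes Pdia3, Pdia6 and Creld2 were all higher in wild type (5 of 5, median 0.15), and 3 of 5 were higher in knockout (median 0.02). The wild-type control array was lowest for 11 of these 13 genes, against 22.9% of all genes, and also for 11 after cyclic loess or quantile normalisation. The exceptions were Hyou1 and Manf, lowest on the knockout high-fat array. These 2 role groups were joined after their values were seen.

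Creld2 and Sdf2l1 had the largest differences among them. Creld2, an ER protein with disulfide isomerase activity and the element shown above, measured 8.25 (wild type) and 8.69 (knockout) on control diet, and 8.88 and 8.53 on high-fat diet. Its diet difference was 0.64 in wild type (1.55-fold) and -0.16 in knockout. Sdf2l1 was at 6.61 and 7.33 on control diet and at 7.07 and 6.96 on high-fat diet, and its diet difference was 0.46 for wild type and -0.37 for knockout. For both genes the wild-type control array was below the other 3 arrays. Among 18 other folding genes kept, Fkbp11, an ER prolyl isomerase, was at 6.21 and 6.88 on control diet and 6.71 and 6.61 on high-fat diet, and Pdia5 at 7.43 and 7.99, then 7.87 and 7.85. The list as a whole did not share this order, with 7 of 18 genes higher for diet in wild type and 9 of 18 higher for genotype on control diet. Ero1b, an oxidase of the disulfide pathway, went the other way with diet, by -0.55 and -0.43 (limma adjusted p 0.368), and Dnajc1 was higher by 0.40 and 0.46 (limma adjusted p 0.405).

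The acute phase and pancreas means were also lowest on the wild-type control array. On the knockout high-fat array the pancreas mean was at its highest, 8.53, while Creld2 and Sdf2l1 were lower there than on the wild-type high-fat and the knockout control array. Of the 13 chaperone, lectin and disulfide genes, 6 were highest on the knockout high-fat array, beside 31.2% of all genes. They were Hspa5, Hsp90b1, Dnajb9, Dnajb11, Dnajc3 and Canx, and all 6 were lowest on the wild-type control array, as the pancreas mean was. The acute phase mean and Sdf2l1 had the same highest array, knockout on control diet, where the acute phase gene Saa2 was at 12.34 against 4.97 in wild type. Of 6 plasma and B cell markers, cells that are rich in ER, 3 were under the filter value, and the mean of the 6 lay between 4.07 and 4.32, highest on the wild-type high-fat array, where Creld2 was also highest. Of the 3 kept, Ighm had a diet difference of 0.57 (wild type) and 0.43 (knockout), Mzb1 of 0.50 and 0.23, and Cd79b of -0.16 and -0.02. Their limma adjusted p for diet was 0.368, 0.507 and 0.885, and Ighm and Mzb1 had an unadjusted p under 0.05. The part of these cells and states in the values of Creld2, Sdf2l1 and the other chaperone, lectin and disulfide genes was not tested.

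**Figure D3:**
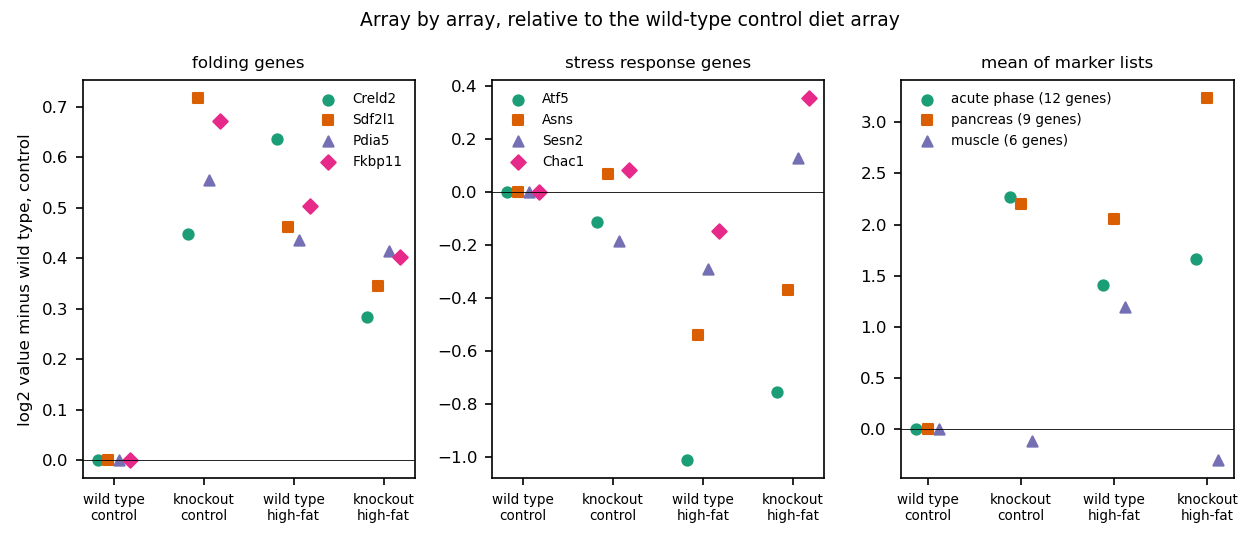
Log2 values of 4 folding genes (left), 4 stress response genes (middle) and the means of 3 marker lists (right) on each array, minus the value on the wild-type control diet array, with separate y scales and 1 array per group. The folding genes lie above the wild-type control array on all other arrays, as do the acute phase and pancreas means, and Atf5 and Asns are lowest on the wild-type high-fat array.

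The next comparison asked how the members differed with loss of Myd88 in hepatocytes. On control diet 1 member was called at 1.5-fold, Sdf2l1 higher in knockout by 0.72 (1.64-fold), against 1.77% of all genes, and 0 at 2-fold, against 0.503%. On high-fat diet 0 members were called at 1.5-fold, against 3.1% of all genes, or at 2-fold, against 0.391%. Of the 32 members, 23 were higher in knockout on control diet with a median of 0.08, beside 46.6% of all genes and a median of -0.02. On high-fat diet 17 were higher, with a median of 0.04, beside 54.0% and 0.02. The genotype comparison on control diet shares the wild-type control array with the diet comparison in wild type, so the pair is not independent.

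Dnajb9 had the largest genotype effect. It encodes ERdj4, a J protein that is a well-known IRE1 and XBP1 target and helps BiP keep IRE1 inactive. On control diet its log2 value was 8.96 in wild type and 9.41 in knockout, and on high-fat diet 9.01 and 9.56. Both knockout arrays were higher than both wild-type arrays, by 0.45 (1.37-fold) and 0.55 (1.46-fold). The limma genotype effect was 0.50 (SE 0.12), with an unadjusted p of 0.00740 and an adjusted p of 0.976, and the adjusted p lay between 0.824 and 0.992 under the alternatives tried.

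Hspa5 had the same order at a smaller size. Its control diet values were 8.80 in wild type and 9.08 in knockout, and its high-fat diet values 8.92 and 9.19, which is 0.29 and 0.27 higher in knockout (limma effect 0.28, SE 0.12, adjusted p 0.976). The other members higher in knockout on both diets were Hsp90b1, Dnajb11, Dnajc3, Canx, Derl1, Trib3, Chac1, Asns and Ppp1r15a. That makes 11 of 32 members, against 25.3% of all genes, while 3 members (Sel1l, Derl3 and Ern1) were lower on both diets, against 24.6%. Limma called 0% of all genes and 0 of 32 members for genotype after adjustment. At an unadjusted p under 0.05 it called 4.26% of all genes and 1 member, Dnajb9. The pancreas and acute phase means were also higher in knockout on both diets. On high-fat diet, though, 8 of the 12 acute phase genes were higher and 4 lower, with a median of 0.09. The part of both lists in the values of Dnajb9 and Hspa5 was not tested.

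**Figure D4:**
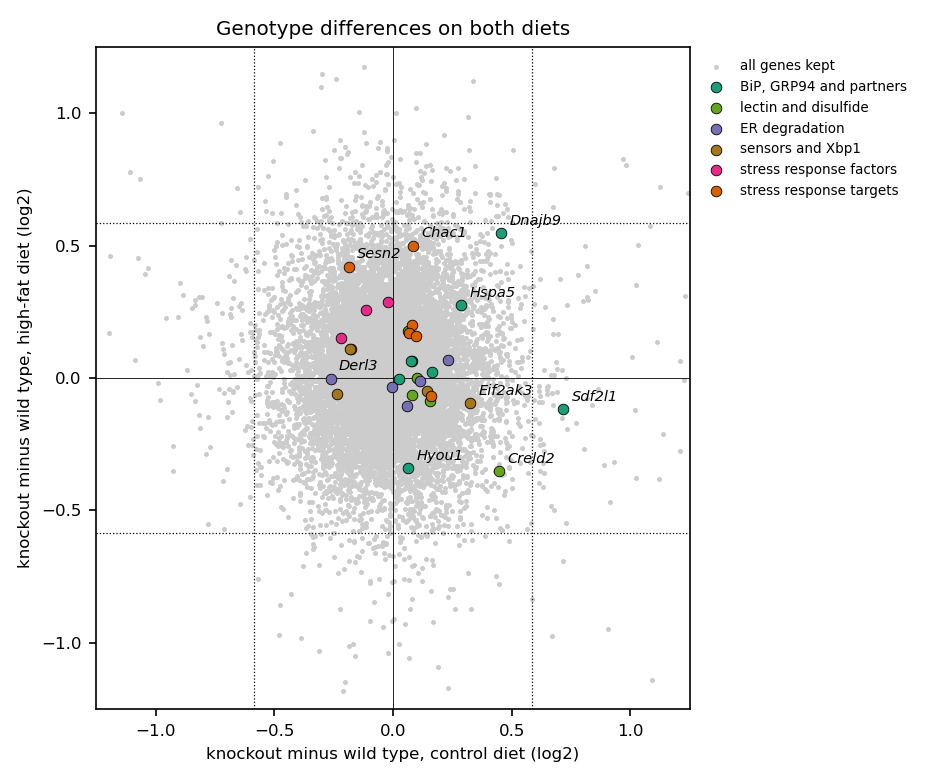
Each point is a gene kept by the filter, with its log2 difference between knockout and wild type on control diet (x axis) and on high-fat diet (y axis); members are coloured by role, dotted lines mark 1.5-fold, and genes beyond the axes are not drawn. Dnajb9 and Hspa5 were higher in knockout on both diets, and Creld2 was higher on control diet and lower on high-fat diet.

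On high-fat diet the stress response genes were mostly higher in knockout. This held for 8 of the 9 kept (median 0.20), against 54.0% of all genes, and also for 8 (against 51.4% and 49.8% of all genes) after cyclic loess or quantile normalisation. Chac1 was higher by 0.50 (1.42-fold), Sesn2 by 0.42 (1.34-fold), Atf4 by 0.29 and Atf5 by 0.26, and Ddit4 differed by -0.07. Of the tRNA synthetase genes, 10 of 11 were higher in knockout on that diet (median 0.16), and 9 of 11 after cyclic loess or quantile normalisation. Over all genes 67.6% of the calls at 1.5-fold in this comparison were higher in knockout, against 57.2% after cyclic loess and 53.2% after quantile normalisation. This comparison shares the wild-type high-fat array with the diet comparison in wild type. On that array the muscle mean was at its highest, and all 5 muscle genes kept were above their wild-type control values, at 5.93 against 4.37 for the skeletal actin gene Acta1, and their part in these values was not tested. On control diet 5 of the 9 stress response genes were higher in knockout, with a median of 0.07, and 6 of 9 after either normalisation.

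On high-fat diet the lectin and disulfide genes were lower in knockout for 4 of 5 (median -0.06), beside 45.9% of all genes, and on control diet they were higher for 5 of 5 (median 0.10), beside 46.6%. Most of these differences on high-fat diet were small. Creld2 differed by -0.35, Pdia6 by -0.09 and Calr by -0.06, Pdia3 was level at -0.0013, and Canx was higher by 0.18. For Hyou1 the control diet values were 9.14 in wild type and 9.20 in knockout, and the high-fat diet values 9.16 and 8.82, so that the knockout high-fat array alone was low.

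The machinery of ER-associated degradation showed no common direction. It comprises the scaffold gene Herpud1, the mannosidase-like Edem1, the Hrd1 ligase gene Syvn1 with its adaptor Sel1l, and the derlin genes Derl1 and Derl3. With diet 4 of 6 were lower in each genotype, with medians of -0.02 and -0.12. Syvn1 was at 7.12 and 7.18 on control diet and at 6.98 and 6.88 on high-fat diet, and Edem1 at 9.53 and 9.64, then 9.41 and 9.39, so both were lower on high-fat diet in both genotypes (limma adjusted p 0.643 and 0.717). Herpud1 was at 11.16 and 10.98 on control diet and at 11.16 and 11.28 on high-fat diet. Derl3, which is abundant in secretory tissues such as pancreas, was at 4.63 and 4.37 on control diet and at 4.75 on both high-fat diet arrays. Of 13 other degradation genes kept, 5 were higher for diet in wild type and 6 in knockout, and limma called 0 after adjustment and 0 at an unadjusted p under 0.05. In that list the lectin gene Erlec1 had the largest difference, 0.51 higher in knockout on high-fat diet.

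The sensors also stayed close together. Ern1, which encodes IRE1, had control diet values of 8.18 in wild type and 7.94 in knockout, then 7.88 and 7.82 on high-fat diet. Atf6 was at 8.92 and 8.74, then 8.88 and 8.99. Eif2ak3, which encodes PERK, was at 5.00 and 5.33, then 5.10 and 5.00, with the knockout control array alone high. Xbp1, whose messenger RNA IRE1 splices into the active form, was at 9.37 and 9.52, then 9.56 and 9.51, and its probe set gives no separate value for the spliced form. Sensor activity is set by dimerisation, cleavage and phosphorylation, none of which was measured. Among 10 further sensor and eIF2 kinase genes, differences between 2 arrays lay between -0.38 and 0.42, and among 16 genes of the translocon and signal peptidase between -0.68 and 0.42, with 0 limma calls after adjustment in either list and 1 at an unadjusted p under 0.05, Spcs2, lower on high-fat diet. The lowest of the latter was Sec61g, a translocon subunit, lower on high-fat diet in knockout.

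**Figure D5:**
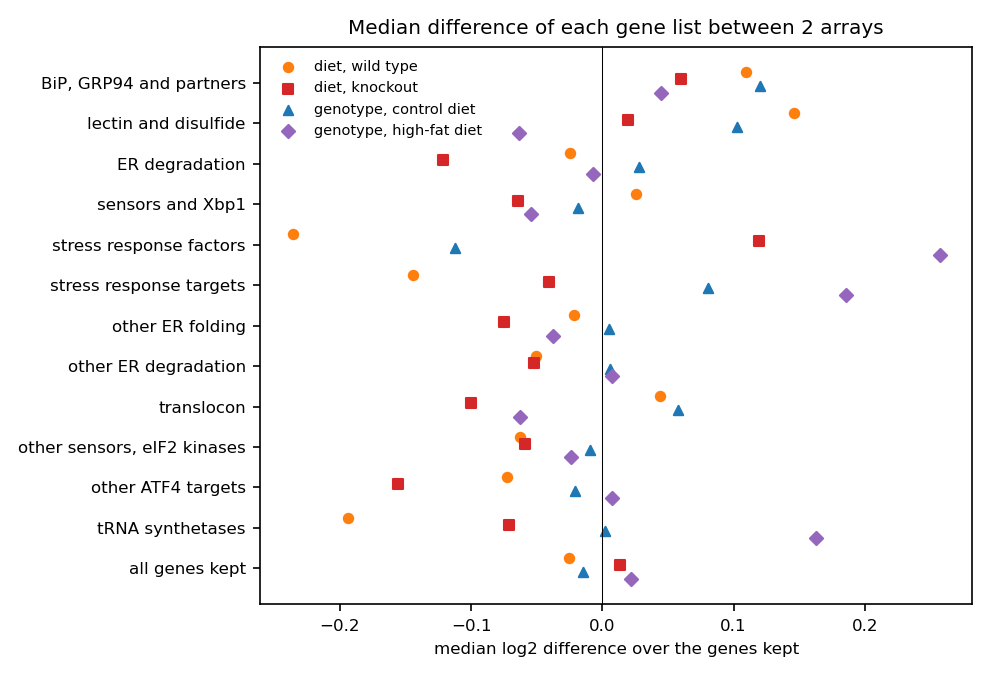
Median log2 difference over the genes kept in each of 6 member groups, 6 further lists of the pathway and all genes, for the 4 comparisons of 2 arrays. The stress response factors and the tRNA synthetases lie below all genes for diet in wild type and above them for genotype on high-fat diet, and the chaperone, lectin and disulfide groups lie above them for diet in wild type and genotype on control diet.

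The design also asks whether the diet difference depended on genotype, which has no error with 1 array per group. The diet difference in knockout minus that in wild type reached 1.5-fold for 3 members, against 8.24% of all genes. It was -0.83 for Sdf2l1, -0.80 for Creld2 and 0.61 for Sesn2. It was negative for 17 of 23 unfolded protein response members (median -0.10) and positive for 8 of 9 stress response members (median 0.31), while 55.9% of all genes were positive with a median of 0.04. By its construction it combines the order of all 4 arrays given above and adds no independent measurement.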

How the data were processed

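RNA from 4 pooled liver samples was measured on 4 arrays. The authors deposited log2 expression values per probe set, made, per the submitters' processing notes, with Affymetrix Expression Console and RMA. The version used is not given in the sources used here. As a method, RMA corrects background and normalises by quantiles over all probes. Differences between arrays remained at gene level: a further quantile normalisation moved the split of higher and lower calls. Scanner files were not used here.

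Of 41345 probe sets, 23521 had 1 gene symbol, 1814 several and 16010 none; only the first kind was used. Entrez identifiers matched the RefSeq gene table for 23328 of these, with 0 symbols updated. Where a gene had several probe sets (1082 genes, Edem1 among the members), the one with the highest mean was taken. Groups follow the labelled genotype and diet. Differences are subtractions of log2 values. The fit was limma 3.58.1 in R 4.3.3 (additive genotype and diet terms, eBayes, Benjamini-Hochberg over 13308 genes), tested on simulated data. With 1 array per group, differences between 2 arrays have no test. Promoters are from RefSeq, GRCm38.p6, and the element ATTGGNCCACG was added to the search after the data were seen; a planned protein feature was not run, since no protein table was used here. Alternatives tried were no filter, a filter at the 60th percentile, cyclic loess, quantile normalisation, the mean of probe sets, a 2-fold call, and eBayes with a trend or robust. Python 3.11.15, pandas 2.3.3, NumPy 2.4.6 and matplotlib 3.10.9 were used otherwise.

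The members and lists were chosen with earlier results of these data known. All members could be named, and from each other list up to 4 genes with the largest difference between 2 arrays, with Myd88.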

Additional observations from a re-analysis of the deposited data

Results flagged for a closer look

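Sdf2l1 differed with diet in opposite directions in the genotypes, by 0.46 in wild type and -0.37 in knockout, which is a difference of -0.83. Creld2 differed with genotype in opposite directions on the 2 diets, by 0.45 on control and -0.35 on high-fat diet, a difference of -0.80. Both were picked out because each side was at least 0.3 on the log2 scale and the signs were opposite. Neither difference was tested, since each group is 1 array. The share of all genes that pass the same rule was not counted, so the flag does not set these 2 genes apart from other genes. A difference of the diet differences of at least 1.5-fold was reached by 3 of the 32 members, against 8.24% of all genes.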

How the results depend on the processing

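At a 2-fold call in place of 1.5-fold, the members called were 1 for diet in wild type (Atf5), 0 for diet in knockout and 0 for genotype on control diet. After cyclic loess, limma called 70 genes for diet, 1 of them a member (Atf5), and 3 genes for genotype, where the deposited values gave 0 in each case; the cause was not tested. Counts of members and of all genes at 1.5-fold were within 1.5 times the main count under the other filters, normalisations and probe set choices. All 110 recomputed member differences of at least 0.3 moved by less than the gene's moderated SD from limma's eBayes, and none changed sign. That SD borrows spread from all genes and can exceed a gene's own residual SD. The filter and probe set settings leave these differences unchanged by construction, because each of these members has 1 probe set. Only the cyclic loess and quantile normalisation values among the 110 could move. Leaving out an array was not possible, since the fit would keep 0 residual degrees of freedom. No paired analysis was possible because each group is 1 pooled array. Dim members (the stress response targets) are the least certain.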

Other observations

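The 9 members with an ER stress response element in the promoter window were set beside the 19 kept members with a promoter but no match. On high-fat diet in wild type 8 of the 9 were higher, with a median of 0.12, and Syvn1 differed by -0.14. Of the 19, 8 were higher and 11 lower, with a median of -0.12, beside 44.9% of all genes higher. The 19 include all 9 kept stress response members, so this contrast overlaps with that between the roles. Of those stress response members, 8 were lower with diet in wild type and 8 higher in knockout on high-fat diet. Of all 23 unfolded protein response members kept, with a match or not, 16 were higher with diet in wild type. The contrast by element therefore cannot be told apart from that by role. Herpud1 and Dnajb11, which have the related element, are also among the 19. In knockout 6 of the 9 were higher on high-fat diet, with a median of 0.03. On control diet 8 of the 9 were higher in knockout, with a median of 0.08, and the median of the 19 was 0.08 as well. On high-fat diet 4 of the 9 and 11 of the 19 were higher in knockout. Sdf2l1 and Dnajb9, 2 of the members that differed most, had no match in this window. The 4 members with the C/EBP-ATF element (Asns, Chac1, Herpud1 and Trib3) were all higher in knockout on high-fat diet, by 0.11 to 0.50, beside 54.0% of all genes. Asns, Chac1 and Trib3 are among the 9 stress response members kept, of which 8 were higher there, so this count overlaps with role too. On control diet 3 of the 4 with the element were higher in knockout. On high-fat against control diet 3 of the 4 were lower in wild type and 2 of the 4 in knockout. These are descriptions of single arrays with no test.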
